A study of Mus with 48 samples.

Results

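The substantia nigra (SN) and the striatum, the midbrain and forebrain ends of the nigrostriatal dopamine pathway, were compared by RNA-seq in saline mice. The comparison rests on 8 of the 48 libraries of the series, the SN and the striatum of the same 4 mice, and on 13448 of 23339 named genes, those whose mean over the 8 libraries was above 1 FPKM, a read count scaled to transcript length and library size. The series as a whole covers 4 brain regions (SN, striatum, cortex and cerebellum) in 3 treatment groups of 4 mice: MPTP followed by treadmill exercise for 12 weeks, MPTP alone, and saline. MPTP, a toxin that kills dopamine neurons, was given as 10 injections of 25 mg per kg together with probenecid. The mice of the comparison were C57BL/6J females bought at 8 weeks of age, received saline in place of MPTP and were not exercised. Both regions were micro-dissected after the last behavioural test, and the labels name the tissue but not which part of the SN or the striatum was taken. These are bulk tissue pieces, so fewer cells of a type and less RNA per cell cannot be told apart.

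Dopamine neurons have their cell bodies, and so most of their mRNA, in the compact part of the SN, and send their axons to the striatum, where they release dopamine. The striatum consists largely of GABAergic medium spiny neurons, which sense dopamine through D1-type receptors in the direct pathway and D2-type receptors in the indirect pathway. Direct pathway axons return to the reticular part of the SN, itself rich in GABA neurons, and loss of the SN dopamine neurons is the hallmark of Parkinson's disease.

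Each gene was tested on the log2(FPKM + 1) scale with the mouse as a block, by limma with Benjamini-Hochberg adjustment over all 13448 genes. A gene was called higher or lower where the adjusted p was below 0.05, and every fold change below is the log2 difference of SN minus striatum, which understates the change of genes with low values. Where a gene is called higher by a value without a unit, the value is this log2 difference. Of the 13448 genes, 4521 (33.6%) were higher and 2569 (19.1%) were lower in SN than in striatum. With a log2 fold change beyond 1 in either direction, 517 (3.84%) were higher and 621 (4.62%) were lower. The 4 SN values lay above all 4 striatum values in 31.9% of genes and below all 4 in 17.8%. The filter takes the mean of both regions, so a gene almost absent from either region was tested only where the other was high. In lists with many such genes, the counts and medians follow in part from the filter. The median over all genes was 0.09. In the gene lists below, a count of higher members is to be read against 33.6% of all genes and a count of lower members against 19.1%. Both directions together are to be read against the 52.7% that passed the test. Every library resembled its own region more, with median correlations across genes of 0.978 to 0.991 within a region and 0.902 to 0.926 between regions. The total count of reads is not given in the FPKM table. From the steps between low values, relative depth ranged from 0.83 in the SN of mouse 4 to 1.08 in the striatum of mouse 1.

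Some libraries stood apart. The striatum of mouse 4 had 49.8 FPKM of Slc17a7, the vesicular glutamate transporter of cortical neurons, against 216 to 228 FPKM in the other 3 striatum libraries, and 1.99 FPKM of the cortical transcription factor Tbr1, against 12.9 to 17.8 FPKM. In SN, mice 2 and 4 carried more Dlx6, a transcription factor of forebrain inhibitory neurons, at 1.11 and 3.23 FPKM, than mice 1 and 3, at 0.253 and 0.464 FPKM. The choroid plexus gene Ttr stood at 1554 and 2434 FPKM in the striatum of mice 3 and 4, against 49.7 and 107 FPKM in mice 1 and 2. Without mice 3 and 4, 3504 genes were higher and 2000 lower. Without mice 2 and 4, 3121 genes were higher and 2105 lower. No called gene changed direction in either case. Each of these fits rests on 2 mice only, and the mice to leave out were chosen after the data were seen. Below, 4 values of a region are those of mice 1, 2, 3 and 4 in that order.

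The genes of dopamine synthesis and transport were higher in SN. All 9 members passed the test, with a median log2 fold change of 3.54. Tyrosine hydroxylase (Th), the rate-limiting enzyme of dopamine synthesis, reached 192, 294, 135 and 214 FPKM in the SN, against 2.96, 2.84, 3.01 and 3.11 FPKM in the striatum (log2 fold change 5.67 ± 0.17 (SE), adjusted p = 7.33e-06). The dopamine transporter Slc6a3, which takes released dopamine back up, had the largest fold change of all 13448 genes, with 201, 306, 141 and 229.7 FPKM in SN and 0.0636, 0.0238, 0.134 and 0.112 FPKM in striatum (log2 fold change 7.62 ± 0.18 (SE), adjusted p = 3.97e-06). Aromatic amino acid decarboxylase (Ddc), which makes dopamine from L-DOPA, had 192, 248, 112 and 196 FPKM in SN, against 6.10, 7.11, 5.15 and 6.63 FPKM in striatum (log2 fold change 4.65 ± 0.12 (SE), adjusted p = 4.45e-06). For these 3 genes the SN and striatum values did not overlap, and in all 3 the SN of mouse 2 was highest and that of mouse 3 lowest.

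The vesicular monoamine transporter Slc18a2 followed the same order among the SN libraries, with 82.5, 118, 54.0 and 94.3 FPKM in SN and 1.07, 1.36, 1.11 and 1.47 FPKM in striatum (log2 fold change 5.24 ± 0.15 (SE), adjusted p = 6.14e-06). Aldh1a1, an aldehyde dehydrogenase that clears the aldehyde formed from dopamine, reached 292, 390.2, 197 and 308 FPKM in SN and was also present in striatum, at 23.2, 24.0, 23.6 and 25.1 FPKM (log2 fold change 3.54 ± 0.14 (SE), adjusted p = 1.98e-05). Slc10a4, a transporter of monoaminergic and cholinergic synaptic vesicles, had 43.6, 72.6, 31.3 and 51.8 FPKM in SN against 7.44, 7.83, 7.52 and 9.20 FPKM in striatum (log2 fold change 2.44 ± 0.17 (SE), adjusted p = 1.13e-04). The other 3 members make or recycle tetrahydrobiopterin, the cofactor of tyrosine hydroxylase. Gch1, which begins its synthesis, rose by 2.03 on the log2 scale, to 5.43 to 7.50 FPKM in SN against 0.624 to 0.877 FPKM in striatum. Qdpr, which recycles the cofactor, was high in both regions, at 238 to 286 FPKM in SN and 147 to 173 FPKM in striatum (log2 fold change 0.62). Pts was higher by only 0.25 (adjusted p = 0.0162), with overlapping values of 13.8 to 18.2 FPKM in SN and 11.7 to 16.3 FPKM in striatum, and it was no longer called without the mouse block, mouse 2 or mouse 3. Summed over the 9 genes, SN had 1260, 1691, 977 and 1368 FPKM in mice 1 to 4, and no striatum library had more than 234 FPKM.

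Of 9 tested transcription factors that specify or maintain midbrain dopamine neurons, 7 were higher in SN, none was lower and the median log2 fold change was 2.45. The homeobox gene En1 had 26.8, 28.1, 16.8 and 19.7 FPKM in SN, and was listed at 0 in 3 striatum libraries and at 0.0169 FPKM in that of mouse 1 (log2 fold change 4.54 ± 0.14 (SE), adjusted p = 7.33e-06). Pitx3, which the dopamine neurons of the SN need to survive, had 11.9, 17.4, 4.56 and 8.18 FPKM in SN and 0.213, 0, 0 and 0.168 FPKM in striatum (log2 fold change 3.26 ± 0.26 (SE), adjusted p = 2.02e-04). Foxa1, a forkhead factor of the midbrain floor, had 6.03, 10.7, 2.95 and 6.07 FPKM in SN and 0, 0.0517, 0 and 0.0851 FPKM in striatum (log2 fold change 2.74 ± 0.23 (SE), adjusted p = 2.27e-04). These factors were close to undetected in the striatum, and among the 4 SN pieces mouse 2 was again highest and mouse 3 lowest. Lmx1b, En2 and Foxa2 were higher by 2.56, 2.45 and 2.06 on the log2 scale, and none of their SN and striatum values overlapped. Like En1, Pitx3 and Foxa1, they had striatum means below 1 FPKM and passed the filter only through their SN values. The count and median of this list therefore follow in part from the filter. Sox6 was higher by 0.31 (adjusted p = 0.042), at 3.12 to 4.6 FPKM in SN and 2.79 to 2.96 FPKM in striatum, and lost its call when mouse 1, 2 or 4 was left out (fold changes 0.33, 0.22 and 0.31).

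Nr4a2 (Nurr1) and Otx2 did not pass the test. Nr4a2, a nuclear receptor that drives dopamine neuron genes and is also made in cortex, had 13.6, 22.2, 8.56 and 17.4 FPKM in SN and 17.7, 14.9, 18.0 and 1.01 FPKM in striatum, so that 3 striatum libraries lay within the SN range and that of mouse 4 far below it. The Nr4a2 log2 fold change was 0.60 with a 95% interval of -0.92 to 2.12 (adjusted p = 0.456). It was -0.26 without mouse 4, and -0.67 (limma, adjusted p = 0.0201) without mice 2 and 4, a fit that rests on mice 1 and 3 alone. The striatum of mouse 4 was also the lowest of the 4 in Tbr1 and Slc17a7, and the part of cortical tissue in the Nr4a2 values was not tested. Otx2, a factor of the ventral midbrain and of choroid plexus, had 2.66, 3.23, 2.48 and 2.87 FPKM in SN and 0.234, 0.948, 4.07 and 7.37 FPKM in striatum. Its log2 fold change was 0.26, with an interval of -0.82 to 1.34. The striatum values of Otx2 followed the same order as those of Ttr, and without mice 3 and 4 Otx2 was called higher in SN.

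Receptors and other markers of dopamine neurons numbered 12, of which 9 were higher, 1 was lower and 2 did not pass (median log2 fold change 2.76). The nicotinic acetylcholine receptor subunit Chrna6 had 24.0, 47.1, 16.8 and 34.2 FPKM in SN and 0.0234, 0, 0 and 0.159 FPKM in striatum (log2 fold change 4.82 ± 0.22 (SE), adjusted p = 3.10e-05), and its partner Chrnb3 was higher by 3.12. Ret, the signalling receptor for GDNF, had 55.5, 79.2, 39.5 and 53.6 FPKM in SN and 2.04, 0.826, 2.04 and 3.08 FPKM in striatum (log2 fold change 4.29 ± 0.28 (SE), adjusted p = 9.71e-05). Dlk1, a Notch-family ligand, and Sncg, gamma-synuclein, were higher by 3.89 and 3.73, with 55.5 to 92.2 and 68.7 to 113 FPKM in SN against 3.16 to 4.71 and 5.38 to 7.05 FPKM in striatum. Each of these 5 genes separated the regions without overlap. Anxa1 (annexin A1), Gucy2c, a receptor guanylate cyclase, Ntsr1, a neurotensin receptor, and Kcnj6, the GIRK2 potassium channel subunit, were higher by 2.95, 2.58, 2.35 and 1.47.

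Drd2 was the member that was lower. This D2 receptor serves as the autoreceptor of dopamine neurons and is also the receptor of indirect pathway neurons in the striatum. It had 48.9, 55.1, 30.9 and 38.3 FPKM in SN, against 96.8, 96.1, 93.1 and 110.3 FPKM in striatum (log2 fold change -1.21 ± 0.14 (SE), adjusted p = 7.22e-04). The SN value was therefore 0.437 of the striatal value by the means, and the ranges did not overlap. The peptide genes Cck and Vip did not pass: their log2 fold changes were -0.61 and -0.96, with intervals of -1.66 to 0.44 and -2.02 to 0.10. In both, the striatum of mouse 4 was far below the other 3 (62.8 against 185 to 199 FPKM for Cck), and both were called lower in SN when mouse 4 was left out, with log2 fold changes of -1.20 and -1.48.

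**Figure D1:**
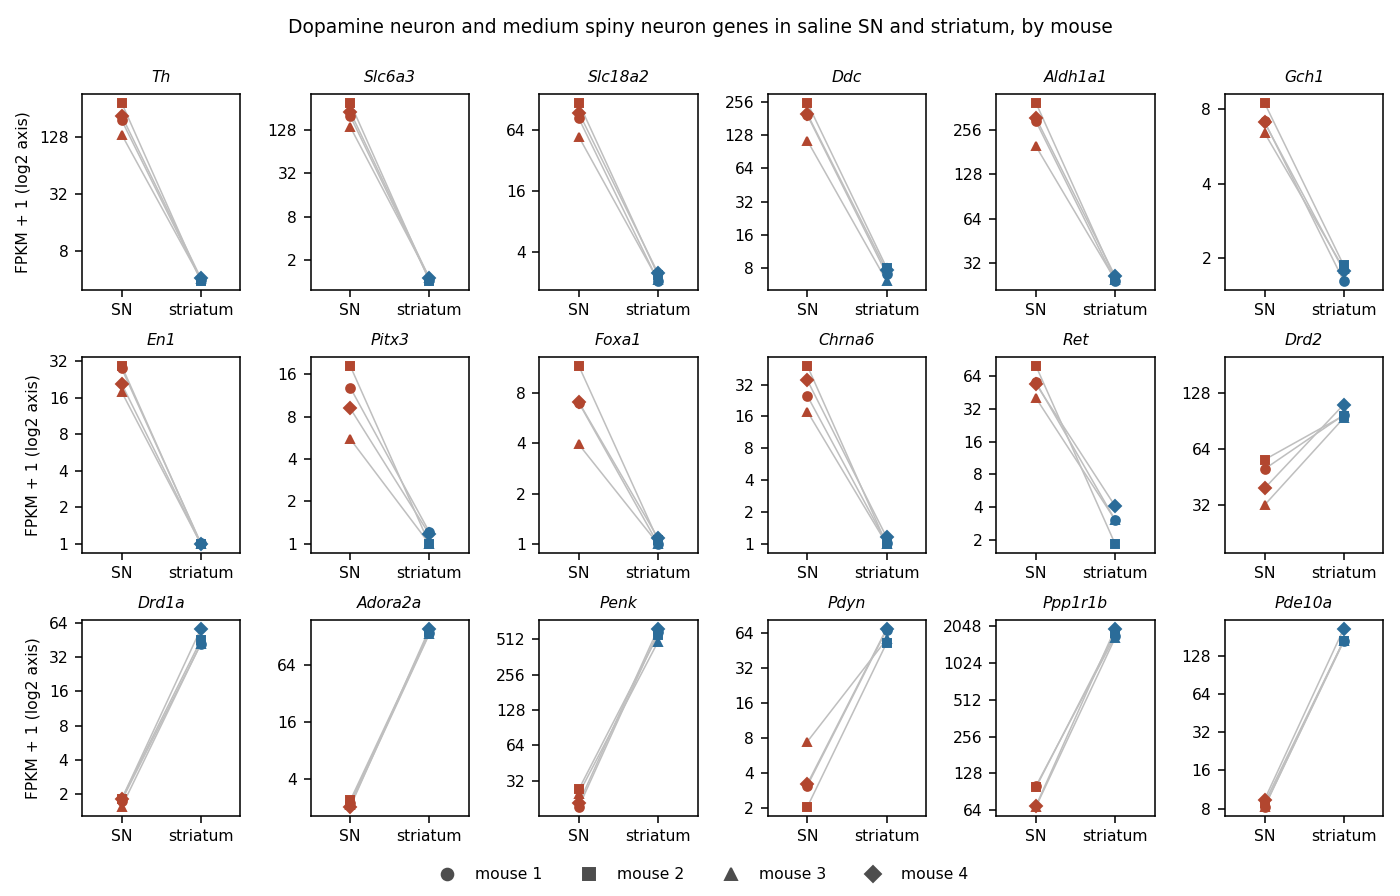
Levels of 18 genes in the SN (left of each panel) and the striatum (right) of the 4 saline mice, as FPKM + 1 on a log2 axis, with a line joining the regions of 1 mouse. The dopamine neuron genes En1, Th and Slc6a3 run down from SN to striatum in every mouse, Drd2 runs up by less than Drd1a, Adora2a or Pde10a, and the SN of mouse 3 is the lowest of the 4 in Th, Slc6a3 and Pitx3.

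Transcription factors of other midbrain and diencephalic neurons were also higher in SN, in 15 of 16 tested members, with a median log2 fold change of 2.45. The Iroquois genes Irx3 and Irx2, which pattern the midbrain, had 27.1, 21.3, 21.5 and 10.8 and 15.2, 8.40, 11.7 and 7.44 FPKM in SN, against 0.420 to 0.881 and 0.0686 to 0.387 FPKM in striatum (log2 fold changes 3.58 and 3.23). Pax5 and Gata3, a patterning gene of the midbrain and a determinant of midbrain GABA neurons, had 17.0, 6.50, 8.59 and 4.57 and 11.4, 6.47, 10.9 and 4.53 FPKM in SN and were listed at 0 in all 4 striatum libraries. In these 4 genes mouse 1 was highest, mouse 4 was lowest and mouse 2 lay below mouse 1, which is a different order among the SN libraries from that of Th. The homeobox gene Uncx was higher by 3.08. Tcf7l2, a Wnt effector abundant in the thalamus, had 19.3, 8.97, 40.6 and 11.7 FPKM in SN and 5.49, 1.24, 2.96 and 7.89 FPKM in striatum (log2 fold change 1.93 ± 0.41 (SE), adjusted p = 0.00843), with the highest SN value in mouse 3, the mouse with the lowest SN values of Th. Six3 was the exception, lower in SN (log2 fold change -0.74, adjusted p = 0.0277) with overlapping ranges of 8.93 to 20.4 FPKM in SN and 19.4 to 30.3 FPKM in striatum, and it was not called without mouse 2 (log2 fold change -0.80). Of the 21 genes of the list, 5 had a mean of 1 FPKM or less and were not tested. Irx3, Irx2, Pax5, Gata3, Uncx and most of the other higher members had striatum means below 1 FPKM. They passed the filter only through their SN values, so the count and median of this list follow in part from the filter.

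The medium spiny neuron signalling list ran the opposite way, with 19 of 20 members lower in SN, none higher and a median log2 fold change of -2.86. Ppp1r1b (DARPP-32), which turns dopamine signals into control of protein phosphatase activity, had 99.5, 97.0, 67.0 and 68.1 FPKM in SN, against 1706, 1809, 1645 and 1955 FPKM in striatum (log2 fold change -4.43 ± 0.13 (SE), adjusted p = 6.96e-06). The cyclic nucleotide phosphodiesterase Pde10a had 7.27, 7.85, 7.26 and 8.40 FPKM in SN and 168, 168, 166 and 208 FPKM in striatum (log2 fold change -4.36 ± 0.058 (SE), adjusted p = 6.52e-07). Ppp1r1b was thus still well detected in SN, at 67.0 FPKM or more.

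Other members with a fold change beyond -3 were Rgs9, which shortens G protein signals (-4.86), Gng7, a G protein gamma subunit (-4.07), Actn2, an actin crosslinker (-3.63), Rasd2, a small GTPase also called Rhes (-3.50), Scn4b, a sodium channel beta subunit (-3.05), and Pde1b, a calmodulin-dependent phosphodiesterase (-3.02). Pde7b, Adcy5, the main adenylyl cyclase of the striatum, Arpp21, Itpr1, Arpp19, Rasgrp2, Dgkb, Strn, Gnal, the olfactory-type stimulatory G protein, and Ptpn5, the striatum-enriched phosphatase, were lower, with log2 fold changes of -2.98, -2.73, -2.52, -2.50, -2.38, -2.20, -2.07, -1.79, -1.70 and -1.37. Arpp21, which encodes a phosphoprotein regulated by cyclic AMP, was uneven within the striatum, at 88.4, 298, 81.6 and 304 FPKM, against 21.3, 32.2, 21.8 and 36.1 FPKM in SN. The protein kinase gene Prkcd was the member without a call, at 7.86, 7.71, 47.5 and 11.2 FPKM in SN and 49.8, 6.67, 32.6 and 65.2 FPKM in striatum (log2 fold change -1.06, interval -2.42 to 0.29). It was highest in mouse 3 in SN, highest in mouse 4 in striatum and lowest in mouse 2 in both, as was the case for Tcf7l2. The summed FPKM of the 20 genes was 480 to 541 in SN and 4570 to 5576 in striatum.

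Markers of both output pathways were lower in SN. In the direct pathway list, 7 of 9 members were lower (median -2.83). The D1 receptor Drd1a had 0.749, 0.814, 0.540 and 0.799 FPKM in SN and 40.8, 44.2, 41.2 and 56.0 FPKM in striatum (log2 fold change -4.74 ± 0.088 (SE), adjusted p = 1.85e-06). The peptide precursors Pdyn (dynorphin) and Tac1 (substance P) had 2.11, 1.04, 6.45 and 2.22 and 13.2, 24.0, 17.1 and 20.2 FPKM in SN, against 67.2, 51.4, 55.5 and 68.7 and 148, 135, 119 and 156 FPKM in striatum (log2 fold changes -4.12 and -2.86). Unlike Drd1a, these peptide genes varied among the SN libraries, with Pdyn highest in mouse 3 and Tac1 highest in mouse 2. Chrm4, a muscarinic receptor, Slc35d3, needed for surface D1 receptors, and Isl1, a LIM homeobox gene of direct pathway neurons, were lower, with log2 fold changes of -3.28, -2.83 and -2.11. Ebf1 was lower, with a log2 fold change of -0.43, and Sfxn1 and Eya1 did not pass, with intervals of -0.11 to 0.19 and -0.47 to 0.20.

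All 6 indirect pathway members were lower (median -3.93). The adenosine receptor Adora2a had 1.22, 1.36, 1.11 and 1.02 FPKM in SN, against 138, 141, 135 and 152 FPKM in striatum (log2 fold change -6.03 ± 0.074 (SE), adjusted p = 6.52e-07). Enkephalin precursor (Penk) had 18.1, 25.9, 23.7 and 19.5 FPKM in SN and 585, 549.8, 484 and 625 FPKM in striatum (log2 fold change -4.63 ± 0.13 (SE), adjusted p = 6.22e-06). The orphan receptors Gpr6 and Gpr52 were lower, with log2 fold changes of -4.58 and -3.28, at 0.671 to 1.23 and 1.66 to 2.29 FPKM in SN. Sp9, a zinc finger factor of indirect pathway neurons, showed a smaller difference, with 12.6, 8.18, 10.9 and 6.92 FPKM in SN and 17.1, 16.7, 16.7 and 20.7 FPKM in striatum (log2 fold change -0.84). Of the 5 dopamine receptor genes, Drd1a and Drd2 were tested and both were lower. Drd3, Drd4 and Drd5 had means of 1 FPKM or less and were not tested, with ranges of 0 to 0.474, 0 to 0.119 and 0.233 to 1.23 FPKM in SN and 0.621 to 1.19, 0.0871 to 0.327 and 0.764 to 1.21 FPKM in striatum.

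**Figure D2:**
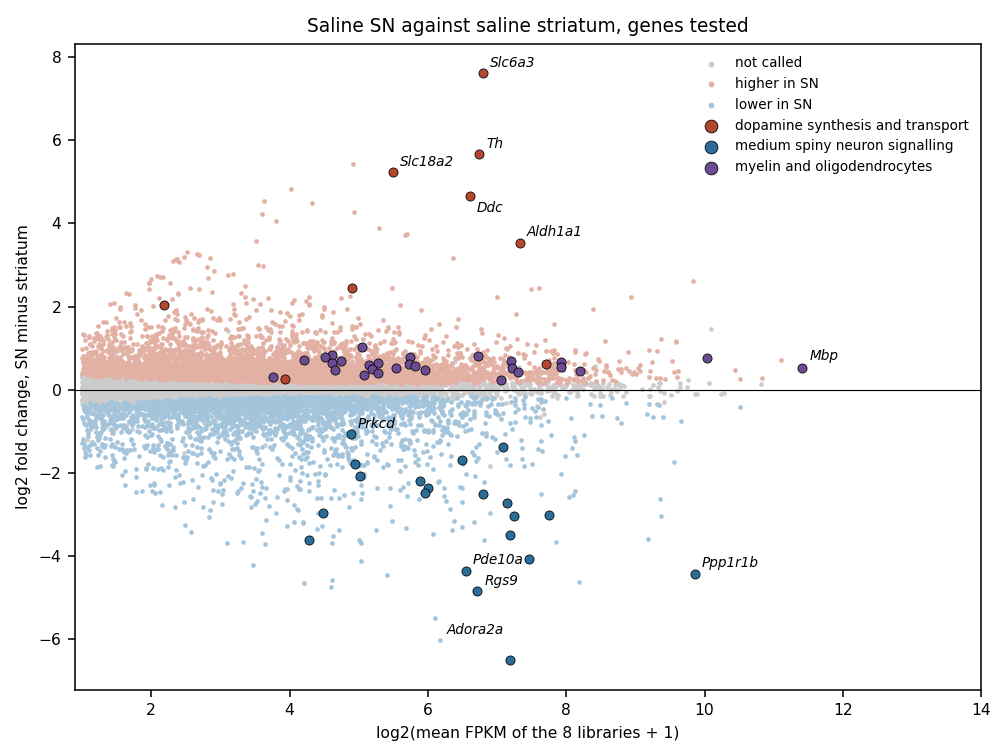
The log2 fold change of SN minus striatum (vertical) of all 13448 tested genes against their mean level, log2 of mean FPKM + 1 (horizontal). The 9 dopamine synthesis and transport genes lie above 0, led by Slc6a3 at 7.62, the medium spiny neuron signalling genes lie below it, with Ppp1r1b at -4.43, and the 28 myelin genes form a narrow band between 0.24 and 1.03.

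Transcription factors of the ventral telencephalon were lower in 15 of 17 tested members, with none higher (median -2.11). Rxrg, a retinoid receptor, had 2.42, 3.68, 2.0 and 2.14 FPKM in SN and 40.3, 43.5, 44.8 and 48.3 FPKM in striatum (log2 fold change -3.69 ± 0.13 (SE), adjusted p = 1.18e-05). Dlx6, Meis2 and Bcl11b (Ctip2), which act in the making of striatal neurons, were lower, with log2 fold changes of -3.45, -3.38 and -2.98. The SN values of Dlx6, highest in mice 2 and 4, differed widely between the mice, whereas its striatum values were 20.9, 18.8, 19.8 and 25 FPKM.

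Among 13 markers of striatal interneurons, 9 were lower and 2 were higher in SN (median -2.06). The cholinergic genes Chat, which makes acetylcholine, and Slc5a7, which takes up choline, had 0.159 to 0.349 and 0.125 to 0.464 FPKM in SN, against 6.79 to 9.65 and 5.66 to 6.61 FPKM in striatum (log2 fold changes -2.82 and -2.50). Lhx8, a LIM homeobox gene of cholinergic interneurons, was lower, with a log2 fold change of -2.46. Neuropeptide Y (Npy) had 4.64, 16.1, 6.04 and 19.5 FPKM in SN and 144, 127, 122 and 91.6 FPKM in striatum (log2 fold change -3.47 ± 0.39 (SE), adjusted p = 6.68e-04), and somatostatin (Sst) was lower, with a log2 fold change of -1.41. The 2 calcium-binding protein genes of the list were higher in SN. Calretinin (Calb2) had 69.6, 92.2, 109 and 110.4 FPKM in SN, against 6.30, 4.68, 6.34 and 7.14 FPKM in striatum (log2 fold change 3.75 ± 0.12 (SE), adjusted p = 1.03e-05), and parvalbumin (Pvalb) had 267, 205, 197 and 199 FPKM in SN, against 85.3, 72.0, 97.2 and 116 FPKM in striatum (log2 fold change 1.23 ± 0.15 (SE), adjusted p = 8.35e-04). Both are also made by neurons outside the striatum.

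**Figure D3:**
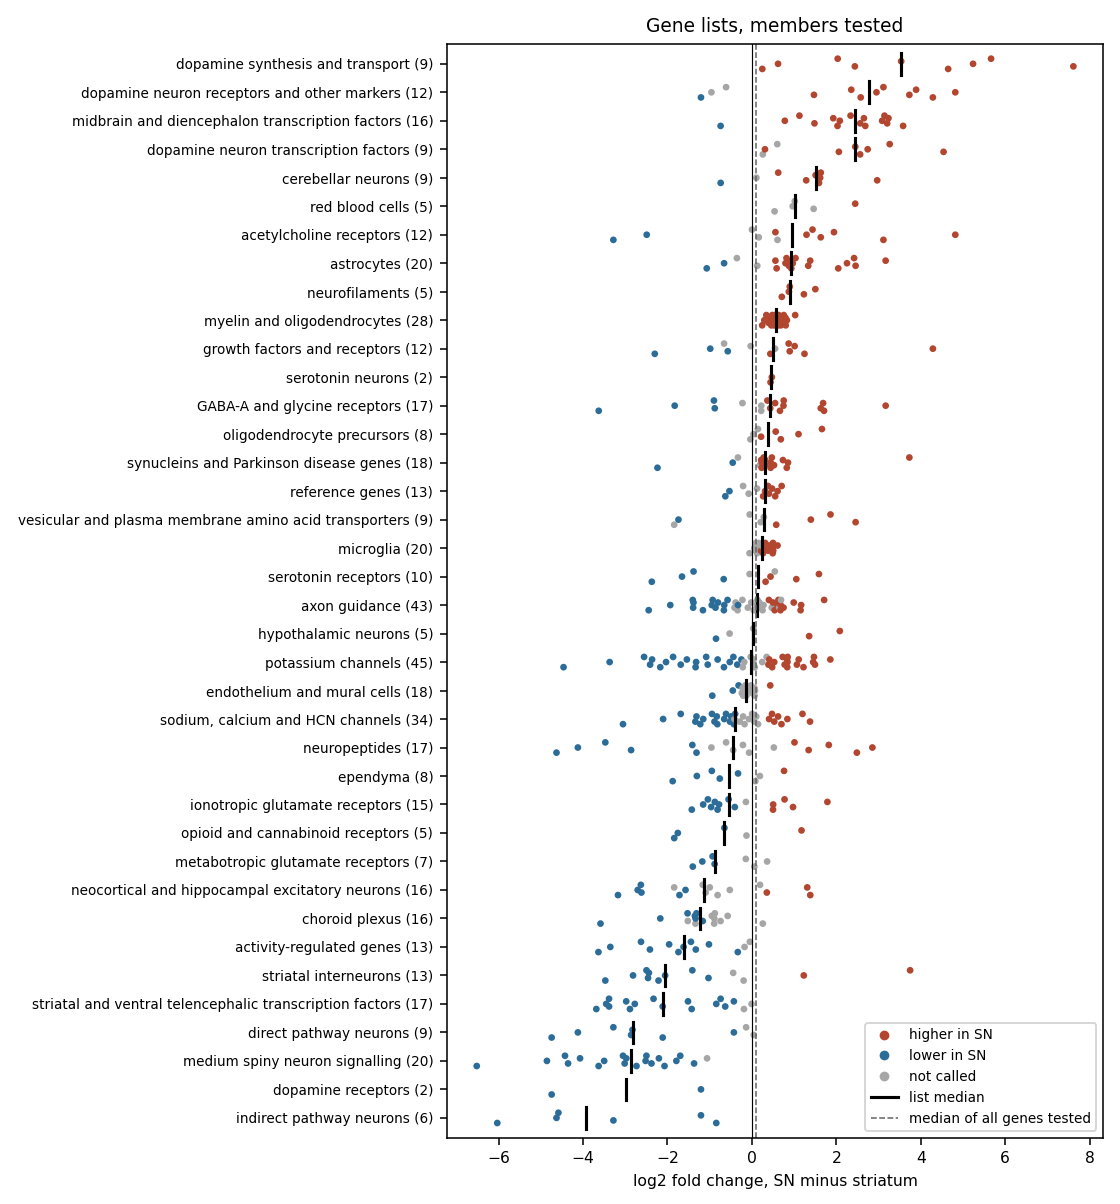
The log2 fold change of SN minus striatum of every tested member of each gene list, 1 dot per gene, with the median of each list marked and a dashed line at 0.09, the median of all genes. The lists run between the medians of 3.54 for dopamine synthesis and transport and -3.93 for indirect pathway neurons, and the 28 myelin genes all lie to the higher side.

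The 15 largest fold changes in each direction held genes outside those lists. Of the 15 highest, 9 were dopamine neuron genes (Slc6a3, Th, Slc18a2, Chrna6, Ddc, En1, Ret, Dlk1 and Sncg), and Calb2 and Irx3 are given with their groups. Myoc (myocilin, a secreted glycoprotein) had 38.4, 41.8, 26.8 and 41.9 FPKM in SN and 0.459, 1.4, 0.406 and 0.568 FPKM in striatum (log2 fold change 4.5 ± 0.12 (SE), adjusted p = 6.14e-06). Rln3, the relaxin-3 peptide of brainstem neurons, was uneven in SN, at 48.2, 11.3, 37.0 and 6.27 FPKM, against 0.272, 0, 0.432 and 0.216 FPKM in striatum (log2 fold change 4.05 ± 0.42 (SE), adjusted p = 4.75e-04). Prl and Gh, the pituitary hormones prolactin and growth hormone, had 51.6, 31.2, 26.9 and 124 and 17.7, 14.6, 18.2 and 38.1 FPKM in SN, against 0.164, 0.462, 0 and 0 and 0.163, 0.548, 0 and 0 FPKM in striatum (log2 fold changes 5.43 and 4.22). Both hormones were highest in the SN of mouse 4, whereas Pomc, a precursor made in pituitary and hypothalamus, was highest in that of mouse 1, at 33.9, 11.3, 5.73 and 13.9 FPKM in SN against 2.30, 2.70, 2.87 and 1.85 FPKM in striatum. The part of tissue from outside the SN in these values was not tested.

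Of the 15 lowest, Adora2a, Rgs9, Drd1a, Penk, Gpr6, Ppp1r1b, Pde10a, Pdyn and Gng7 belong to the striatal lists, and Kcnj4 is given with the channels. Lrrc10b had 1.80, 2.62, 0.981 and 2.80 FPKM in SN and 129, 157, 115 and 131 FPKM in striatum (log2 fold change -5.49 ± 0.12 (SE), adjusted p = 2.76e-06). Ankrd63 had 0.118 to 0.905 FPKM in SN and 31.5 to 40.9 FPKM in striatum (log2 fold change -4.65). Cd4, best known as a co-receptor of T cells, had 0.205, 0.0785, 0.121 and 0.0917 FPKM in SN and 17.9, 20.1, 17.7 and 24.7 FPKM in striatum (log2 fold change -4.22 ± 0.12 (SE), adjusted p = 6.14e-06), so the gene was detected in all 8 libraries and most in those of the striatum. Kcnh4, a voltage-gated potassium channel gene, was lower, with a log2 fold change of -3.71, at 0.502 to 1.11 FPKM in SN and 18.4 to 25.9 FPKM in striatum.

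Glutamate receptor genes tended to be lower in SN, with individual subunits the other way. Of 15 ionotropic subunits, 9 were lower and 5 were higher (median -0.55), and of 7 metabotropic receptors 4 were lower and none was higher (median -0.88). The NMDA receptor subunits split: Grin2d had 30.1, 25.8, 31.9 and 17.8 FPKM in SN and 7.79, 5.51, 6.68 and 7.23 FPKM in striatum (log2 fold change 1.79 ± 0.15 (SE), adjusted p = 2.46e-04), while Grin2b had 4.01, 4.19, 2.87 and 4.6 FPKM in SN and 16.9, 12.3, 9.14 and 11.1 FPKM in striatum (log2 fold change -1.42 ± 0.12 (SE), adjusted p = 2.36e-04). The ranges of these NMDA subunits did not overlap between regions. Grin3a was higher by 0.97, and the common subunit Grin1 was lower, with a log2 fold change of -0.78, at 97.0 to 135 FPKM in SN and 184 to 202 FPKM in striatum. The AMPA receptor subunits Gria3 and Gria2 were lower, with log2 fold changes of -1.04 and -0.81, and the kainate receptor subunits Grik2 and Grik5 had -1.15 and -0.97. The metabotropic receptors Grm5, Grm4, Grm7 and Grm3 were lower, with log2 fold changes of -1.4, -1.18, -0.93 and -0.88.

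Inhibitory receptor subunits differed in the other direction, with 10 of 17 higher and 4 lower in SN (median 0.43). The glycine receptor subunit Glra1 had 16.4, 10.4, 13.9 and 7.47 FPKM in SN, against 0.168, 0.197, 0.633 and 0.688 FPKM in striatum (log2 fold change 3.17 ± 0.23 (SE), adjusted p = 1.41e-04). Glra3, Gabrb2 and Glrb were higher by 1.69, 0.75 and 0.55. By contrast, Gabrd, a subunit of receptors outside synapses, had 0.654, 3.55, 7.60 and 6.73 FPKM in SN and 56.3, 55.7, 53.4 and 65.3 FPKM in striatum (log2 fold change -3.63 ± 0.37 (SE), adjusted p = 4.57e-04), and Gabra4, which can join it in the same receptor, was lower, with a log2 fold change of -1.83.

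Among 12 acetylcholine receptor genes, 7 were higher and 2 were lower (median 0.95). Besides Chrna6 and Chrnb3, the nicotinic subunit Chrna4 had 36.3, 37.7, 32.9 and 31.7 FPKM in SN and 9.99, 5.41, 9.27 and 9.12 FPKM in striatum (log2 fold change 1.94 ± 0.16 (SE), adjusted p = 2.03e-04), and Chrnb2, its usual partner, was higher by 0.56. The muscarinic receptors Chrm1 and Chrm4 were lower, with log2 fold changes of -2.49 and -3.28. Serotonin receptors split evenly, with 4 of 10 higher and 4 lower (median 0.13), and the number higher was 2 without mouse 2, 3 or 4 in turn. Htr7 and Htr2c were higher by 1.59 and 1.05, with 21.9 to 31.4 FPKM of Htr2c in SN and 7.86 to 17.9 FPKM in striatum. Htr1b, Htr1d and Htr6 were lower, with log2 fold changes of -2.37, -1.66 and -1.38. Of 5 opioid and cannabinoid receptors, Oprd1 (delta opioid), Cnr1 (cannabinoid CB1) and Oprk1 (kappa opioid) were lower, with log2 fold changes of -1.84, -1.76 and -0.65, and the nociceptin receptor Oprl1 was higher by 1.18, at 20.3 to 26.3 FPKM in SN and 8.30 to 10.1 FPKM in striatum.

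**Figure D4:**
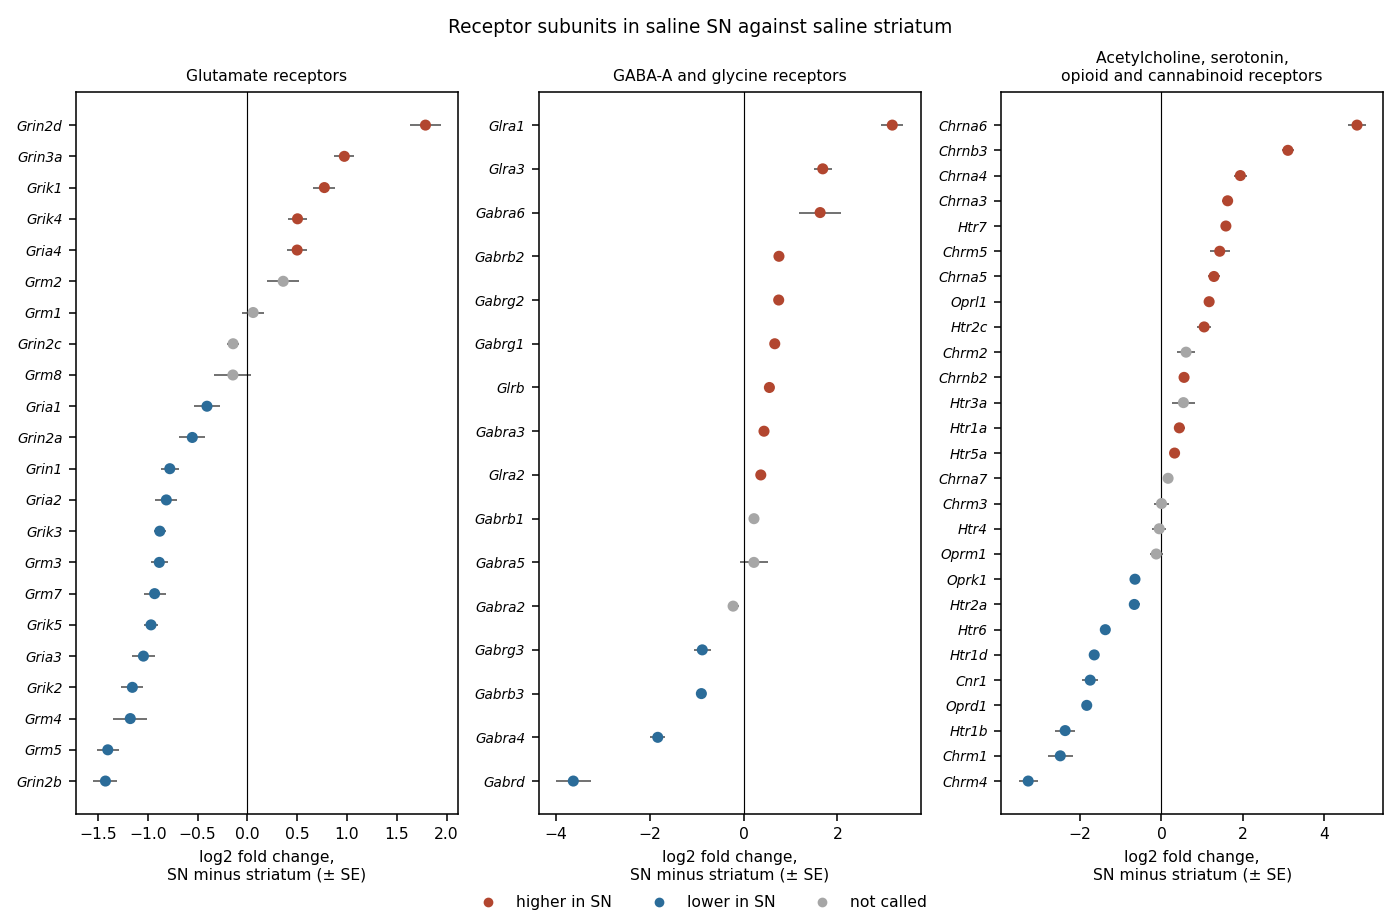
The log2 fold change of SN minus striatum with its SE for the receptor subunits of glutamate, of GABA and glycine, and of acetylcholine, serotonin, opioids and cannabinoids, each in 4 mice. Grin2d at 1.79 and Grin2b at -1.42, and Chrna6 at 4.82 and Chrm4 at -3.28, are subunits or receptors for 1 transmitter system that differ in opposite directions. The inhibitory receptor subunits Glra1 (glycine) at 3.17 and Gabrd (GABA) at -3.63 also differ in opposite directions.

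The transporters that define neurotransmitter classes differed in both directions. Of 9 amino acid transporters and GABA synthesis genes, 4 were higher, 1 was lower and 4 did not pass (median 0.28). Slc6a11, a GABA transporter of astrocytes, had 384, 325, 348 and 254 FPKM in SN and 56.1, 48.3, 58.7 and 72.6 FPKM in striatum (log2 fold change 2.46 ± 0.16 (SE), adjusted p = 9.48e-05), and Slc6a9 (glycine transporter) was higher by 1.4. The vesicular glutamate transporter of subcortical neurons, Slc17a6, had 17.3, 14.5, 37.2 and 16.6 FPKM in SN and 7.58, 1.46, 3.66 and 10.1 FPKM in striatum (log2 fold change 1.86 ± 0.40 (SE), adjusted p = 0.00859), with its highest value in the SN of mouse 3, as for Tcf7l2. Slc17a8 was lower, with a log2 fold change of -1.74. Gad1, which makes GABA, and Slc32a1, which loads it into vesicles, were abundant in both regions, with 248, 185, 190.0 and 183 and 223, 142, 168 and 111 FPKM in SN against 177, 142, 166 and 215 and 129, 115, 125 and 145 FPKM in striatum. Their log2 fold changes were 0.21 (interval -0.08 to 0.49) and 0.28 (interval -0.14 to 0.70), and both were called higher when mouse 4 was left out, by 0.35 and 0.51.

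Of 17 neuropeptide genes tested, 5 were higher and 6 lower in SN (median -0.44). The lower ones were led by Penk, Pdyn, Npy and Tac1. Adcyap1, the precursor of the peptide PACAP, was higher, with 6.75, 10.9, 14.9 and 16.6 FPKM in SN and 1.06, 0.839, 0.704 and 0.453 FPKM in striatum (log2 fold change 2.85 ± 0.26 (SE), adjusted p = 3.15e-04).

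Ion channel genes differed in both directions. Of 45 potassium channel genes, 17 were higher and 20 lower (median -0.03), and of 34 sodium, calcium and HCN channel genes 8 were higher and 17 lower (median -0.41), with 4 higher when mouse 1 and 5 when mouse 2 was left out. The inward rectifier Kcnj4 had 1.66, 4.14, 0.569 and 7.36 FPKM in SN and 83.2, 82.2, 76.9 and 76.4 FPKM in striatum (log2 fold change -4.46 ± 0.37 (SE), adjusted p = 2.15e-04), with its SN values highest in mice 2 and 4. Kcnip2, an accessory subunit of A-type potassium channels, had 6.14, 16.3, 7.63 and 36.2 FPKM in SN and 136, 152, 140.2 and 153 FPKM in striatum (log2 fold change -3.37 ± 0.35 (SE), adjusted p = 4.79e-04). Kcnip2 showed the same excess in the SN of mice 2 and 4. Kcnab1, Kcnv1 and Kcnq5 were lower, with log2 fold changes of -2.55, -2.41 and -2.37, whereas Kcnc1, a channel of fast-firing neurons, was higher by 1.11, at 99.8 to 175 FPKM in SN and 53.5 to 68.1 FPKM in striatum. The calcium channel genes Cacna2d3, Cacng3 and Cacna1e were lower, with log2 fold changes of -2.10, -1.69 and -1.34, and the pacemaker channel gene Hcn3 was higher by 1.38. Kcnab2 and Cacng7, abundant members without a call, had intervals of -0.20 to 0.28 and -0.02 to 0.22.

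All 5 neurofilament genes were higher in SN (median 0.90). The heavy chain Nefh, a component of large axons, had 76.9, 49.7, 72.1 and 50.2 FPKM in SN and 23, 14.6, 20.9 and 27 FPKM in striatum (log2 fold change 1.5 ± 0.15 (SE), adjusted p = 4.42e-04), and Prph, Nefl, Ina and Nefm were higher by 1.23, 0.90, 0.88 and 0.71. For Nefh, Nefl, Ina and Nefm the SN values of mice 1 and 3 were above those of mice 2 and 4, the mice with more Dlx6 in SN.

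Among 18 synucleins and genes linked to Parkinson's disease or dopamine breakdown, 14 were higher, 2 were lower and 2 did not pass (median 0.31). Most of the differences were small. Sncg led with 3.73, and beta-synuclein (Sncb) was higher by 0.85, at 331 to 434 FPKM in SN and 186 to 249.6 FPKM in striatum. Monoamine oxidase A (Maoa), the lysosomal pump gene Atp13a2, the ubiquitin hydrolase gene Uchl1 and the mitochondrial kinase gene Pink1 were higher by 0.83, 0.74, 0.45 and 0.28. The kinase gene Lrrk2 went the other way, with 2.22, 2.78, 2.23 and 2.79 FPKM in SN and 17.5, 17.1, 11.7 and 16.3 FPKM in striatum (log2 fold change -2.24 ± 0.10 (SE), adjusted p = 3.10e-05).

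Growth factor systems were split between the regions. Of 12 tested genes 6 were higher and 3 were lower (median 0.49). The GDNF receptor Ret was far higher in SN, as given above. Gdnf itself, chosen after its values were seen, was below the filter, with 0.165, 0.091, 0.118 and 0.0735 FPKM in SN and 1.05, 1.25, 1.10 and 1.18 FPKM in striatum. The neurotrophin genes Ntf3 and Bdnf were higher by 1.25 and 1.01, and Ntrk2, the receptor for BDNF, was higher by 0.44, at 110.5 to 129 FPKM in SN and 86.6 to 92.8 FPKM in striatum. The neurotrophin receptor gene Ngfr was lower, with 1.13, 1.52, 1.08 and 1.47 FPKM in SN and 3.39, 2.34, 4.25 and 4.53 FPKM in striatum (log2 fold change -0.99 ± 0.16 (SE), adjusted p = 0.00315). Ntrk3 did not pass (interval -0.17 to 0.11).

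Axon guidance genes, 43 tested, had 13 higher and 14 lower members (median 0.11). The secreted cue netrin-1 (Ntn1) had 16.1, 18.6, 10.8 and 13.8 FPKM in SN and 3.88, 3.0, 4.10 and 4.11 FPKM in striatum (log2 fold change 1.71 ± 0.17 (SE), adjusted p = 4.06e-04), and the semaphorin receptor Plxnd1 had 3.05, 3.57, 4.03 and 4.08 FPKM in SN and 25.2, 26, 23 and 23.5 FPKM in striatum (log2 fold change -2.45 ± 0.095 (SE), adjusted p = 1.74e-05). Robo3, Efnb2 and Epha7 were lower, with log2 fold changes of -1.93, -1.4 and -1.39. Efna3 was lower, with a log2 fold change of -0.33, and Efnb3 and Unc5a did not pass.

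Activity-regulated genes, which neurons switch on within minutes of firing, were lower in SN in 11 of 13 cases, with none higher (median -1.62). Egr3 had 2.61, 4.68, 2.07 and 7.11 FPKM in SN and 61.1, 66.9, 62.9 and 44.4 FPKM in striatum (log2 fold change -3.64 ± 0.29 (SE), adjusted p = 1.92e-04). Arc, a regulator of synaptic strength, had 7.36, 6.16, 8.98 and 8.91 FPKM in SN and 44.2, 67.0, 75.2 and 35.9 FPKM in striatum (log2 fold change -2.63 ± 0.21 (SE), adjusted p = 1.86e-04). Egr4, Egr1, Egr2, Nr4a1 and Junb were lower, with log2 fold changes of -3.35, -2.42, -1.96, -1.74 and -1.62. In the striatum, mouse 4 had the lowest value of all 7 genes, and it was also the striatum library lowest in cortical markers.

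Many glial genes were higher in SN. All 28 myelin and oligodendrocyte genes were higher, by amounts between 0.24 and 1.03 (median 0.58), and their summed FPKM was 6425 to 8074 in SN and 4317 to 4982 in striatum. The structural myelin gene Mobp was higher by 0.46, at 289 to 378 FPKM in SN, against 238 to 253 FPKM in striatum. Myelin basic protein (Mbp), the most abundant member, had 2913, 3246, 3754 and 2972 FPKM in SN and 2071, 2215, 2278 and 2376 FPKM in striatum (log2 fold change 0.52 ± 0.091 (SE), adjusted p = 0.00375), and its fold change was -0.08 after quantile normalization, which sets the highest values of all libraries equal. The transcription factors Nkx6-2 and Olig1 were higher by 1.03 and 0.80, the gap junction gene Gjb1 by 0.78, and Hapln2, a link protein of nodes of Ranvier, by 0.79. Of 8 genes of oligodendrocyte precursors, 5 were higher (median 0.39), C1ql1 by 1.66, Lhfpl3 by 1.10, Olig2 by 0.69, Neu4 by 0.56 and the growth factor receptor Pdgfra by 0.22. Pdgfra was not called without mouse 1, 2 or 4, or without the filter on low values. It was also not called with all 16 saline libraries in the fit, nor after median scaling or quantile normalization.

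Astrocyte genes were higher in 16 of 20 cases and lower in 2 (median 0.93), with summed FPKM of 1806 to 2142 in SN and 939 to 997 in striatum. Angiotensinogen (Agt) had 167, 176, 124 and 123 FPKM in SN and 15.1, 11.8, 14.4 and 21.4 FPKM in striatum (log2 fold change 3.17 ± 0.20 (SE), adjusted p = 8.12e-05). The intermediate filament gene Gfap had 312, 362, 219.7 and 310.4 FPKM in SN and 46.5, 55.1, 57.1 and 60.5 FPKM in striatum (log2 fold change 2.42 ± 0.14 (SE), adjusted p = 5.77e-05). Itih3 and the water channel Aqp4 were higher by 2.25 and 2.05. The main glutamate transporter of astrocytes, Slc1a2, was lower, with 128, 128, 123 and 144 FPKM in SN and 209, 234, 207 and 179 FPKM in striatum (log2 fold change -0.66 ± 0.095 (SE), adjusted p = 0.00179). Thus Gfap, Agt and Aqp4 were higher and Slc1a2 lower in the same 4 pairs of libraries, without overlap for any of the 4 genes.

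Microglial genes were higher in 11 of 20 cases and lower in none (median 0.24), and 6 were higher when mouse 2 was left out. The protease gene Ctss was higher by 0.61, the complement genes C1qc, C1qb and C1qa by 0.50, 0.50 and 0.49, and Olfml3 by 0.49. In the SN, C1qa had 117, 109, 81.5 and 84.7 FPKM, against 62.8, 72.5, 67.2 and 72.3 FPKM in striatum. Endothelial and mural cell genes mostly did not pass, with 14 of 18 not called, 1 higher and 3 lower (median -0.15), and 1 lower when mouse 1 or mouse 2 was left out. Slco1c1, a thyroid hormone transporter of brain vessels, was lower, with 11.1, 9.86, 13.6 and 14.7 FPKM in SN and 19.4, 22.7, 26.4 and 29.9 FPKM in striatum (log2 fold change -0.94 ± 0.075 (SE), adjusted p = 1.96e-04), Flt1 and Rgs5 were lower, with log2 fold changes of -0.45 and -0.32, and Vtn was higher by 0.43. Vtn was not called without mouse 1, 2 or 4, without the filter on low values or after median scaling. Slc2a1, the glucose transporter of the blood-brain barrier, and Ly6c1 did not pass, with intervals of -0.22 to 0.17 and -0.35 to 0.37.

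Markers of neighbouring tissue were examined because the regions were dissected out of the whole brain. Genes of neocortical and hippocampal excitatory neurons were lower in 6 of 16 cases and higher in 3 (median -1.13), and their summed FPKM was 157 to 547 in SN and 1075 to 1803 in striatum. Slc17a7 had 24.0, 72.8, 16.7 and 106 FPKM in SN and 228, 216, 228 and 49.8 FPKM in striatum (log2 fold change -1.84, adjusted p = 0.0759), and the postsynaptic gene Nrgn had 87.6, 235, 145 and 322 FPKM in SN and 1094, 1338, 1115 and 886 FPKM in striatum (log2 fold change -2.63 ± 0.31 (SE), adjusted p = 8.33e-04). Without mouse 4, 12 members were lower, Slc17a7 among them with a log2 fold change of -2.82. Without mouse 2, none was higher. The cortical factor genes Tbr1 and Neurod6 had 1.99 to 17.8 and 1.33 to 10.5 FPKM in the striatum, each lowest in mouse 4. The part of cortical tissue in the striatal values was not tested.

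Cerebellar neuron genes were higher in SN in 7 of 9 tested cases (median 1.51), and in 3 when mouse 2 was left out. The Purkinje cell gene Pcp2 had 1.36, 34.6, 20.9 and 28.4 FPKM in SN and 0.621, 0.370, 0.757 and 2.71 FPKM in striatum (log2 fold change 2.97 ± 0.61 (SE), adjusted p = 0.00703), so the SN of mouse 1 lay below the striatum of mouse 4. Choroid plexus genes were lower in 7 of 16 cases (median -1.24), a count that fell to 1 without the mouse block, 3 without mouse 3 and 2 without mouse 4. Ttr had 3.70, 27.1, 16 and 443 FPKM in SN and 49.7, 107, 1554 and 2434 FPKM in striatum (log2 fold change -3.59 ± 0.70 (SE), adjusted p = 0.00589), and was not called without the block. Clic6 was the choroid plexus gene whose ranges did not overlap, at 0.573, 1.32, 0.862 and 3.17 FPKM in SN and 4.49, 5.15, 14.8 and 20.8 FPKM in striatum. Ependymal genes were lower in 5 of 8 cases and higher in 1 (median -0.54), with 3 lower when mouse 2 or mouse 3 was left out.

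Of the genes that define serotonin neurons, the synthesis enzyme Tph2, the transporter Slc6a4 and the transcription factor Fev had means of 1 FPKM or less and were not tested, at 0.798 to 1.78, 0.320 to 1.31 and 0 to 0.591 FPKM in SN and 0.0953 to 0.265, 0 to 0.0566 and 0 to 0.0331 FPKM in striatum. The 2 tested members, monoamine oxidase B (Maob) and the receptor Htr1a, were higher by 0.47 and 0.44. The ranges of Htr1a overlapped, and it was not called without mouse 2, 3 or 4, after quantile normalization, without the filter on low values or with all 16 saline libraries in the fit (limma, adjusted p = 0.06, 0.0556 and 0.0645 for the last 3). Genes of hypothalamic neurons were higher in 2 and lower in 1 of 5 tested cases. None of 12 Hox genes of the hindbrain passed the filter, and their summed FPKM was 0.225 to 2.83 in SN and 0 to 0.199 in striatum. Red blood cell genes varied between single pieces. Hba-a2 had 670.2, 5139, 254 and 788 FPKM in SN and 1189, 235, 184 and 231 FPKM in striatum, highest in the SN of mouse 2 and the striatum of mouse 1 (log2 fold change 1.46, interval -0.39 to 3.31). Hba-a1, near-identical in sequence to Hba-a2 so that their split is uncertain, was the only one of the 5 called higher, at 180.1, 138, 3.64 and 7.25 FPKM in SN and 11.2, 5.54, 1.92 and 3.65 FPKM in striatum, and not without the block.

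**Figure D5:**
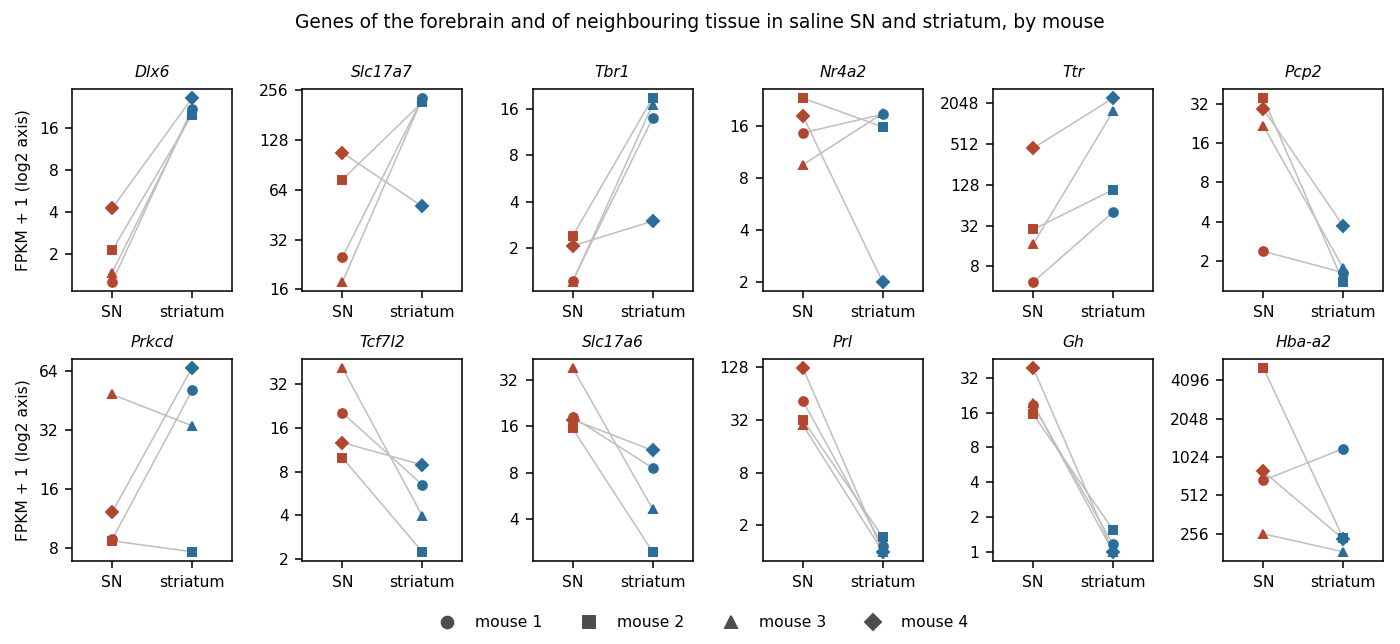
Levels of 12 genes of the forebrain and of neighbouring tissue in the SN (left) and striatum (right) of each of the 4 mice, as FPKM + 1 on a log2 axis. The striatum of mouse 4 lies lowest for Slc17a7, Tbr1 and Nr4a2, the striatum of mice 3 and 4 highest for Ttr, and Prl and Gh lie far above their striatum values in all 4 SN libraries.

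Genes often used to normalise expression were not equal between the regions, with 8 of 13 higher, 2 lower and 3 not called (median 0.31), and 5 higher when mouse 2 was left out. Actb (beta-actin) was lower in SN, with 220.1, 265, 259 and 294 FPKM against 409.6, 401, 391 and 399 FPKM in striatum (log2 fold change -0.63 ± 0.083 (SE), adjusted p = 0.00122). Pgk1, a glycolytic enzyme, had 285, 269.6, 259 and 268 FPKM in SN and 180.3, 163, 182 and 184 FPKM in striatum (log2 fold change 0.61 ± 0.061 (SE), adjusted p = 4.34e-04). B2m and Sdha were higher by 0.70 and 0.55. Gapdh and Ppia were higher by 0.27 and 0.31, and Gapdh was not called without mouse 1, 2 or 3, nor Ppia without mouse 2. Neither was called without the filter on low values, and Ppia was not called after quantile normalization. Of 12 tested genes that the study itself names, 3 were higher and 2 lower (median -0.19), or 5 lower without mouse 4. The called genes were the transcription factors Pou3f2 and Dbx2 at 1.29 and 0.53 and Tmem33, a membrane protein of the endoplasmic reticulum, at 0.28, against the transcription factor Elk1 at -0.86 and Zfp280d, a zinc finger gene, at -0.37. The study chose this list on samples of this series, so that it is not independent evidence of a direction.

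The same region contrast was fitted in the MPTP mice, whose 8 libraries are shared with none of the saline values, as 4 SN against 4 striatum libraries without a mouse block. In MPTP mice 5128 genes were higher (38.1%) and 2826 lower (21%) in SN. Of the 4521 genes higher in saline SN, 3973 were also higher in MPTP SN, which is 77.5% of the MPTP list and 87.9% of the saline list. Of the 2569 lower genes 2141 were also lower, 75.8% of the MPTP list and 83.3% of the saline list. In the opposite direction, 5 genes were lower in MPTP SN and higher in saline SN, and 2 were higher in MPTP SN and lower in saline SN. Tested as a difference of differences, the region contrast differed between MPTP and saline mice in 67 genes (0.498%), lower in MPTP in 63 and higher in 4. That number was 36 and 37 without the striatum of saline mouse 2 or 3, 42 without the SN of saline mouse 2, 42 in each case without MPTP SN library 1 or 2, and 40, 38 and 44 without MPTP striatum library 1, 2 or 4. With a block for the mouse in both treatments, taken from the number that the library names of the regions share, 5310 genes were higher and 2923 lower in MPTP SN, and 4049 and 2193 of these were called the same way in saline SN. The region contrast then differed in 30 genes, all lower in MPTP, 28 of them among the 67.

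Dopamine neuron genes were among those 67. Slc6a3 had 28.9, 31.2, 23.5 and 31.8 FPKM in the 4 SN libraries and 0.0838, 0, 0.144 and 0.0481 FPKM in the 4 striatum libraries of MPTP mice, so that its region contrast was 4.80 in MPTP mice and 7.62 in saline mice, a difference of -2.82 ± 0.23 (SE; limma, adjusted p = 1.24e-05). Th had 32.3, 36.9, 31.4 and 40.1 FPKM in MPTP SN and 4.17, 3.35, 2.61 and 4.03 FPKM in MPTP striatum, and a contrast of 3.0 in MPTP mice against 5.67 in saline mice. Both remained far higher in SN than in striatum in MPTP mice. Slc10a4, in contrast, was no longer called higher, with a contrast of -0.10 in MPTP mice (limma, adjusted p = 0.563) against 2.44 in saline mice. Drd2 had 8.65, 9.45, 9.14 and 8.19 FPKM in MPTP SN and 124, 128, 108 and 125 FPKM in MPTP striatum, a contrast of -3.63 against -1.21 in saline mice. The contrast of Sv2c, a synaptic vesicle protein chosen after its values were seen, was -2.03 in MPTP mice and 0.23 in saline mice. With the block, Th, Slc6a3, Slc10a4, Drd2 and Sv2c were still called for a difference (limma, adjusted p = 0.00134, 0.0015, 0.00182, 4.70e-04 and 0.0015). Of the medium spiny neuron list, Ptpn5 and Adcy5 also differed, Adcy5 only without the block (limma, adjusted p = 0.218 with it), with contrasts of -2.17 and -3.21 in MPTP mice against -1.37 and -2.73 in saline mice.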

How the data were processed

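Total RNA of SN and striatum was extracted from each mouse with TRIzol and sequenced as RNA-seq libraries, although the extraction note in the labels speaks of cultured cells. The authors deposited a single table of FPKM values per gene and library; the submitters' processing notes name HISAT2 2.1, HTSeq 0.11 and the mouse build mm9, while the published methods name other aligners and quantifiers, and the sources used here do not settle which of them made the FPKM values. FPKM carries no counts, so no count test was run, read depth is unknown, and precision rests on the 4 mice. Of 23366 gene names, 27 had been turned into dates (23 of them with a mean above 1) and were left out.

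Genes with a mean above 1 FPKM over the 8 libraries were tested as log2(FPKM + 1) with limma 3.58.1 (R 4.3.3; mouse and region as terms, eBayes with trend, two-sided, Benjamini-Hochberg adjustment over all 13448 genes), and the script was tested on simulated data. Libraries were grouped by label. Library prefixes give the mouse, and the methods take all regions from the same mice. Deviations of same-mouse libraries from their region means correlated at -0.0125, 0.0659, 0.0475 and 0.0386. Those of different mice correlated at -0.119 to 0.184, so the pairing comes from the animals and not from the values. MPTP libraries were fitted without a block, and the interaction over 16 libraries, because the numbers in their names are not the replicate numbers of the labels. The regions share those numbers, which could still pair the libraries, and both fits were repeated with a block from them. The 40 gene lists (576 of 584 names found) and the libraries compared were chosen with earlier results of these data known. Named were all members of the dopamine neuron, medium spiny neuron, pathway and dopamine receptor lists, any member of the neighbouring-tissue lists, up to 5 called members with the largest fold change and up to 3 of the highest mean from other lists, and the 15 largest fold changes each way, apart from some genes that are not reported here. Alternatives were the fit without the block, pseudocount 0.1, other filters, median scaling, quantile normalization, all 16 saline libraries, no trend, leaving out each mouse, and, chosen after seeing the data, leaving out mice 3 and 4 or mice 2 and 4. Figures were drawn with matplotlib 3.10.9.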

Additional observations from a re-analysis of the deposited data

Results flagged for a closer look

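Among 442 sets of 4 libraries, 1 per gene and region, 32 had a highest or lowest library separated from the other 3 by more than Dixon's 95% critical share of the range, which chance would give in about 1 set in 20. Of these 32, 18 concerned the striatum of mouse 4. The sets cover only the genes named here, some of them chosen with their values known, and sets from the same library are not independent. These numbers are therefore not rates over all genes. Mouse 4 in striatum lay above the other 3 for Pts (16.3 FPKM), Foxa2 (0.0365 FPKM), Chrna6 (0.159 FPKM), Pde10a (208 FPKM), Pde1b (419 FPKM), Sp9 (20.7 FPKM), Bcl11b (39.0 FPKM), Kcnab1 (95.5 FPKM), Efnb2 (18.2 FPKM) and Sv2c (33.7 FPKM), and below the other 3 for Nr4a2 (1.01 FPKM), Cck (62.8 FPKM), Vip (1.09 FPKM), Egr4 (25.4 FPKM), Junb (39.0 FPKM), Slc17a7 (49.8 FPKM), Tbr1 (1.99 FPKM) and Neurod6 (1.33 FPKM). Mouse 1 in striatum lay above the other 3 for En1 (0.0169 FPKM) and Hba-a2 (1189 FPKM). Mouse 2 in striatum lay above the other 3 for Fev (0.0331 FPKM), and below the other 3 for Chrna4 (5.41 FPKM) and Pgk1 (163 FPKM). Mouse 3 in striatum lay below the other 3 for C1qb (48.2 FPKM). The SN of mouse 1 lay above the other 3 for Pvalb (267 FPKM) and Gad1 (248 FPKM). The SN of mouse 2 lay below the other 3 for Tph2 (0.798 FPKM). The SN of mouse 3 lay above the other 3 for Rasd2 (27.6 FPKM) and Grm4 (15.1 FPKM), and below the other 3 for Oprk1 (3.54 FPKM) and Egr2 (0.056 FPKM). The SN of mouse 4 lay below the other 3 for Olig1 (104 FPKM). For En1, Foxa2, Chrna6 and Fev the separated value was itself below 0.2 FPKM, in a striatum where the other 3 libraries were lower still. The part of cortical tissue in the low values of the striatum of mouse 4 was not tested.

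For 22 of the 222 named genes the log2 difference between SN and striatum itself differed between MPTP and saline mice by the limma interaction test at an adjusted p below 0.05, and all 22 were more negative in MPTP mice. With a block for the mouse 14 of the 22 were called, and Aldh1a1, Pitx3, Foxa1, Lmx1b, Ret, Ntsr1, Adcy5 and Ntn1 were not (limma, adjusted p = 0.0716, 0.0823, 0.0992, 0.0551, 0.0841, 0.0823, 0.218 and 0.128). Among the dopamine neuron genes and their receptors, the difference (MPTP minus saline) was -2.82 for Slc6a3, -2.66 for Th, -2.61 for Slc18a2, -2.54 for Slc10a4, -2.53 for Ddc, -2.43 for Drd2, -2.18 for Chrna6, -1.94 for Dlk1, -1.93 for Ret, -1.87 for Chrnb3, -1.82 for Pitx3, -1.67 for Gucy2c, -1.59 for En1, -1.44 for Foxa1, -1.43 for Ntsr1, -1.36 for Lmx1b, -1.13 for Gch1 and -1.13 for Aldh1a1. Outside that group, the difference (MPTP minus saline) was -2.26 for Sv2c, -1.10 for Ntn1, -0.80 for Ptpn5 and -0.47 for Adcy5. Of these, Slc10a4 was not called in MPTP mice and was higher in SN in saline mice, and Sv2c was lower in SN in MPTP mice and was not called in saline mice.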

How the results depend on the processing

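The direction of every called gene among the 13448 held in each alternative in which it was called again, and the counts stayed within 1.5 times of 4521 higher and 2569 lower genes. Leaving out each mouse in turn gave 3304 to 4104 higher and 1999 to 2485 lower genes. Without the replicate block for the mouse, 4643 genes were higher and 2600 lower, and 4382 and 2448 of the calls were kept. Among 215 named genes the fit without the block lost 3 calls (Pts, Ttr and Hba-a1) and gained 1 (Slc17a7). Leaving out 1 mouse ended the call of these named genes, with their log2 fold change in that fit: without mouse 1, Sox6 (0.33), Pdgfra (0.22), Flt1 (-0.44), Vtn (0.27), Rgs5 (-0.21), Gapdh (0.27) and Hba-a1 (1.97). Without mouse 2, these were Pts (0.21), Sox6 (0.22), Six3 (-0.80), Ebf1 (-0.37), Bdnf (1.07), Pdgfra (0.19), C1qa (0.46), Flt1 (-0.34), Vtn (0.49), Rgs5 (-0.29), Gapdh (0.24), Ppia (0.31), Hba-a1 (1.79) and Htr1a (0.46). Without mouse 3 they were Pts (0.24), Pink1 (0.26), Gapdh (0.26) and Htr1a (0.49), and without mouse 4 Sox6 (0.31), Pdgfra (0.19), Vtn (0.42) and Htr1a (0.30). Calls were gained for Efnb3 (0.23) without mouse 1 and, without mouse 4, for Cck (-1.20), Vip (-1.48), Gad1 (0.35), Slc32a1 (0.51), Unc5a (-0.64), Slc17a7 (-2.82) and Neurod6 (-1.94). Median scaling moved the median of all genes by -0.0415 and quantile normalization by -0.0546, with 57.6% and 56.2% of calls higher, against 63.8%. The Mbp log2 fold change turned to -0.0797 (limma, adjusted p = 0.627) under quantile normalization. The Nr4a2 log2 fold change, not called with all mice, was -0.67 (limma, adjusted p = 0.0201) without mice 2 and 4, which made 1 dopamine neuron transcription factor lower in place of 0. That fit rests on mice 1 and 3 alone. The 67 genes whose region contrast differed between MPTP and saline mice became 36 to 84 when each of the 16 libraries was left out in turn, with the fewest without the striatum of saline mouse 2. The count was 45 with a pseudocount of 0.1 and 51 without the trend, and 30 with a replicate block for the mouse in both treatments, an alternative chosen after seeing the data. Deviations of same-mouse MPTP libraries from their region means correlated at 0.294, 0.109, 0.106 and 0.224. MPTP libraries of different mice were not compared, so these values do not show whether the pairing matters. The number of genes called the same way in saline and MPTP mice was 6114 in the same contrast in MPTP libraries, and 5849 to 5965 when single MPTP libraries were left out, and 6242 with the mouse block in MPTP. Without the low-value filter, 10 named genes lost their call: Sox6, Six3, Bdnf, Mbp, Pdgfra, Vtn, Rgs5, Gapdh, Ppia and Htr1a (0.44). With all 16 saline libraries in the fit, 6 lost it (Pts, Six3, Efna3, Pdgfra, Hba-a1 and Htr1a at 0.44) and 2 gained it (Slc17a7 and Neurod6). Quantile normalization ended 5 calls besides that of Mbp, those of Sox6, Pink1, Pdgfra, Ppia and Htr1a (0.36). Median scaling ended 3, those of Sox6, Pdgfra and Vtn. The cause of these shifts was not tested. Read depth is unknown, and 1 added to every value shrinks the fold change of low genes.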
